A study of Staurois parvus with 11 samples.

Results

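Synaptic vesicle and SNARE genes were followed across the brain, spinal cord and leg muscle of the foot-flagging frog Staurois parvus. The genes were taken by name alone, under a rule set with earlier results of these data known. A transcript row of the count tables was a member when the name its annotation starts with began as one of the synaptotagmins, syntaxins, SNAP proteins with a number, VAMPs, synapsins, SV2 proteins, synaptophysins, synaptogyrins, complexins, UNC13, RIMS, RAB3, NSF, synucleins or dynamins. This gave 69 rows of 64 gene IDs, of 23777 rows and 19455 gene IDs in all. Because the rule reads the start of a name, it also took in syntaxin-binding proteins, RAB30 to RAB39 GTPases, the clathrin adaptor SNAP91, the cofactor NSFL1C and DNM1L. Rows named for the best known forms of several families, such as synaptotagmin-1, the synapsins and RAB3A, are not among the 69 and were not analysed here.

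All samples were whole tissues of adult males from a captive colony, with no treatment and no altered gene given. The groups held 5 leg muscles, dissected from the thigh, 4 spinal cords and 2 brains, and each sample gave 1 stranded mRNA library. The study set these tissues side by side to find transcripts that differ along the neuromuscular path used in the foot-flagging display. The sources used here call the samples biological replicates but do not say which tissues came from the same frog, so p-values measure the spread between these samples.

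Transmitter release depends on a small set of membrane proteins. A v-SNARE on the vesicle, chiefly a VAMP, zips together with a syntaxin and SNAP25 in the plasma membrane, and this pulls the membranes together until they fuse. Syntaxin-binding proteins and UNC13 prepare the syntaxin, RIM proteins hold the machinery at the active zone, synaptotagmins and complexins tie fusion to calcium, and NSF takes the spent SNARE complexes apart. Dynamins then pinch membrane off for recycling. Related SNAREs and Rab GTPases do the same kind of work in every cell, between the Golgi, endosomes, lysosomes and the cell surface, so the list holds both neuronal and general trafficking genes.

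Reads in transcripts ranged from 12339432 to 56082082 per library. Levels are given as CPM, read counts per 1e+06 reads after scaling each library by its trimmed mean of M-values factor, and compare 1 row between libraries. Transcript lengths were not used, so levels of different genes are not compared. A row was called when its edgeR quasi-likelihood p, adjusted by Benjamini-Hochberg over all 13923 tested rows, was under 0.05. Of the 69 rows, 64 had enough reads to be tested, and the filter can keep a row through a single tissue in which it is high. The 5 rows that were not tested were STX8, the row of the STX4 gene annotated as STX2, and 1 row each of RAB32, RAB35 and SYTL3, none above 0.89 CPM in any library. Scaling factors were between 0.389 and 0.752 in the leg muscles and between 1.57 and 2.09 in the brains and spinal cords. A CPM sum is therefore not a share of a library's reads. Muscle fibre markers summed to between 270000 and 656000 CPM in the leg muscles. The same markers summed to 1660 and 1820 CPM in spinal cords 1 and 2, against 236 and 61.9 CPM in spinal cords 3 and 4, and to 54.9 and 223 CPM in the brains. Neuron markers summed to between 3140 and 4050 CPM in the brains and to between 6800 and 9430 CPM in the spinal cords. Spinal cords 1 and 2 were sequenced on another lane than the other 9 libraries. In whole tissue, fewer cells of a type and less RNA per cell cannot be told apart.

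The 69 rows summed to 6510 and 6420 CPM in the 2 brains, to between 7180 and 9100 CPM in the spinal cords and to between 1760 and 2320 CPM in the leg muscles. Against leg muscle, 31 of the 64 tested rows were higher in the brain, where 28.7% of all tested rows were called in that direction, and 9 were higher in leg muscle, against 21.9% of all. Between leg muscle and spinal cord, 33 rows were higher in the spinal cord, against 29.9% of all, and 12 were higher in leg muscle, against 25.7% of all. Scaled by library totals alone, the calls were 51 higher in brain and 2 in leg muscle, and 53 higher in spinal cord and 3 in leg muscle. Under that scaling 63.2% and 6.68% of all tested rows, and 68.2% and 6.63%, were called in the same directions. The median Log2FC of the members was 1.68 for brain over leg muscle and -1.20 for leg muscle over spinal cord, beside 0.11 and -0.10 over all tested rows. Between brain and spinal cord, 1 member was higher in the brain, against 1.19% of all rows, and 1 in the spinal cord, against 0.84%. These comparisons share libraries, so the members' values in each are given side by side. In 29 rows the call was higher in both nervous tissues than in leg muscle, in 8 it was higher in leg muscle than in both, and in 16 neither comparison with leg muscle gave a call. Over all tested rows those classes held 24.4%, 19.3% and 37.7%.

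**Figure D1:**
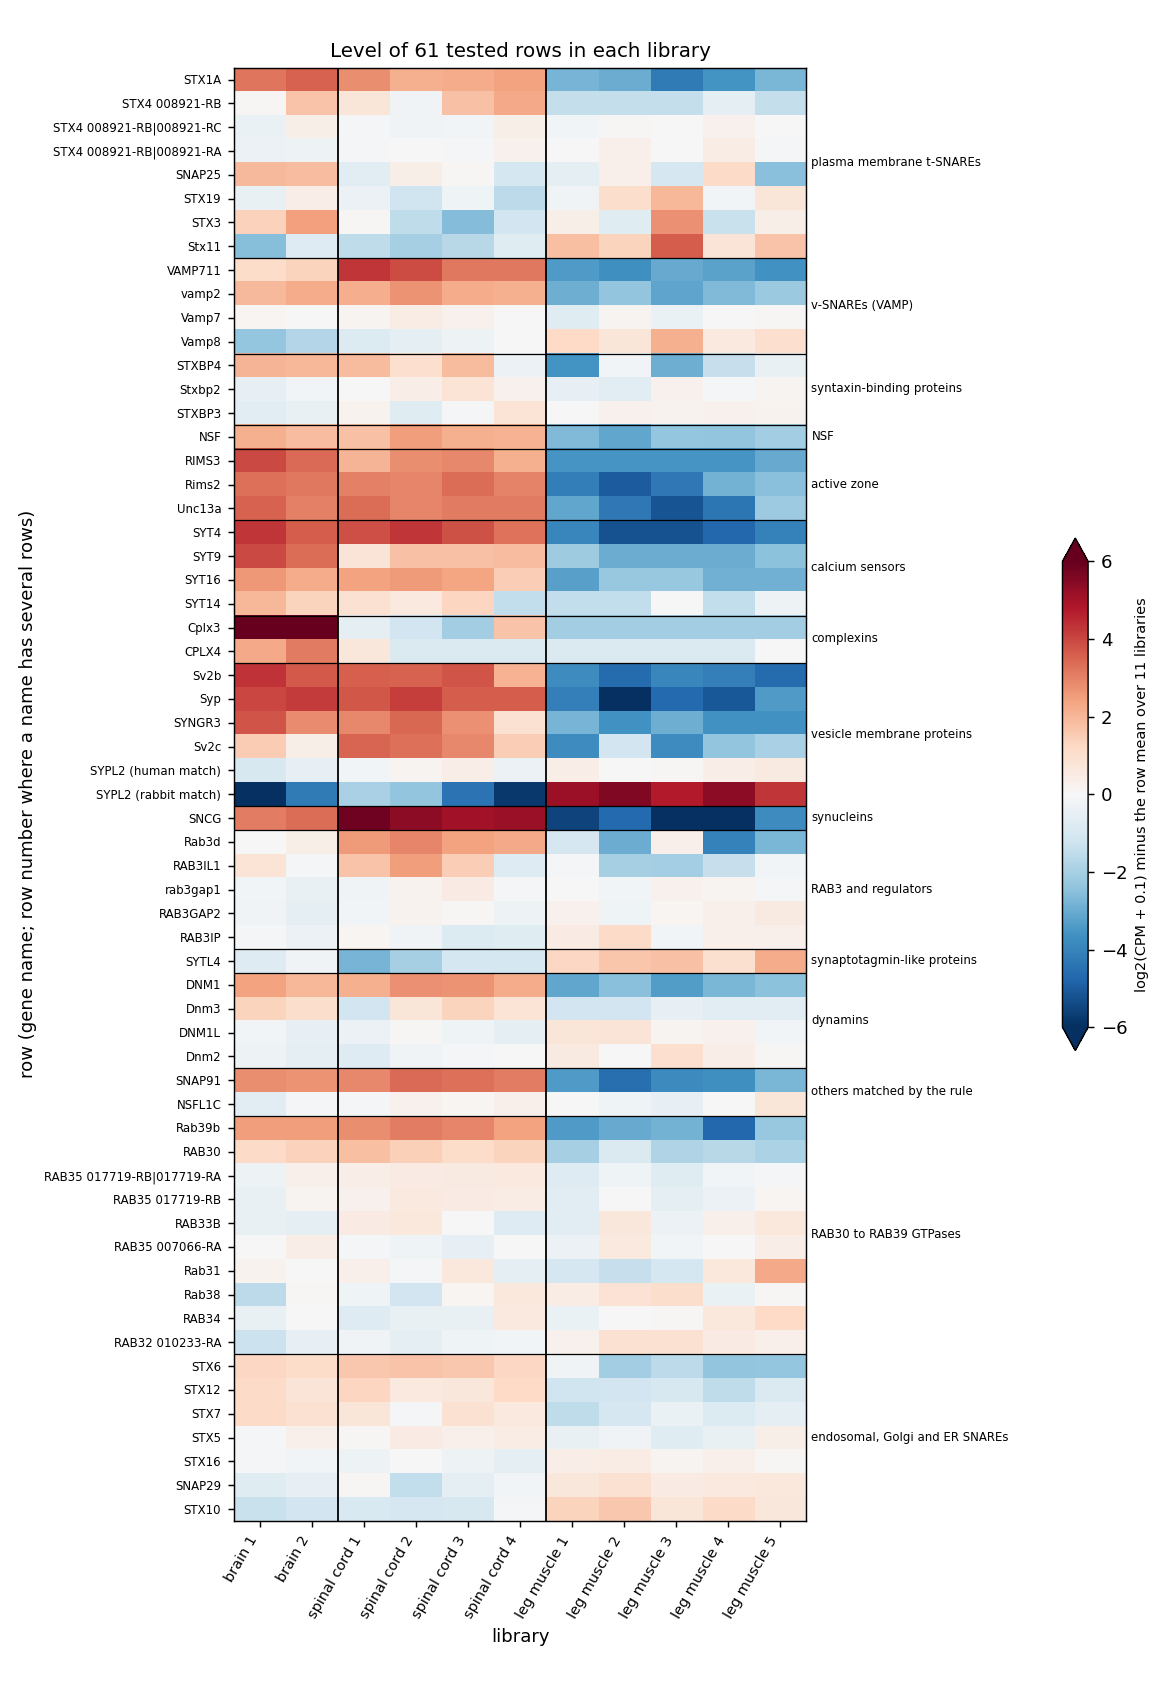
Level of 61 of the 64 tested rows (vertical axis, grouped by role) in each of the 11 libraries (horizontal axis), as log2(CPM + 0.1) minus the row mean over all libraries, with red above and blue below the row mean and colours ending at 6 on the log2 scale. Release genes such as STX1A, Syp and SYT4 are red in every brain and spinal cord and blue in every leg muscle, the rabbit-matched SYPL2 is the reverse, and most endosomal SNAREs and RAB30 to RAB39 rows are pale throughout.

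Of the 9 tested rows for SNAREs of the plasma membrane, 3 were higher in both nervous tissues than in leg muscle. In 1, leg muscle was higher than both, in 1 it was higher than spinal cord alone, and 4 gave no call against leg muscle. Over all tested rows these classes held 24.4%, 19.3%, 6.43% and 37.7%. STX1A, a syntaxin of the presynaptic plasma membrane, stood at 328 and 402 CPM in the brains, at 243, 153, 164 and 188 CPM in spinal cords 1 to 4, and at 5.02, 4.39, 1.77, 2.79 and 5.05 CPM in leg muscles 1 to 5. The 3 tissues did not overlap, but brain over spinal cord did not pass (Log2FC 0.96, SE 0.37, adjusted p = 0.26). Its Log2FC was 6.58 (SE 0.38, adjusted p = 2.2e-07) for brain over leg muscle and -5.62 (SE 0.35, adjusted p = 2.1e-07) for leg muscle over spinal cord.

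SNAP25 is the plasma membrane partner of syntaxin in the textbook complex. The row that carries its name read 3.04 and 2.77 CPM in the brains, 0.421, 0.936, 0.756 and 0.288 CPM in the spinal cords, and 0.457, 0.89, 0.305, 1.69 and 0.0421 CPM in the leg muscles. This row had 199 reads in the brains, 67 in the spinal cords and 66 in the leg muscles. Whether it holds all reads of the frog's SNAP25 was not tested. Both brains were above every other library, and spinal cord and leg muscle overlapped over most of their range. None of its comparisons passed (adjusted p = 0.27, 0.059 and 0.85 for brain against spinal cord, brain against leg muscle and leg muscle against spinal cord). It was called higher in brain than in leg muscle without leg muscle 4 (adjusted p = 0.017), with a filter of at least 10 reads in at least 5 libraries (0.048), with DESeq2 (0.046) and with limma-voom (0.0091). With library totals alone it was called higher in brain and in spinal cord than in leg muscle (adjusted p = 0.00058 and 0.028).

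The v-SNARE vamp2, known as synaptobrevin, was at 379 and 473 CPM in the brains, between 439 and 644 CPM in the spinal cords and between 10.9 and 21.1 CPM in leg muscle. The Log2FC was 4.73 (SE 0.29, adjusted p = 3.0e-07) for brain over leg muscle and -4.96 (SE 0.27, adjusted p = 1.2e-07) for leg muscle over spinal cord. The ATPase NSF was between 921 and 1520 CPM in the nervous system and kept between 31.5 and 64.5 CPM in leg muscle (Log2FC 4.45, SE 0.31, adjusted p = 5.9e-07 for brain over leg muscle, and -4.60, SE 0.29, adjusted p = 2.2e-07 for leg muscle over spinal cord).

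All 3 rows for active zone priming and scaffold proteins were higher in both nervous tissues than in leg muscle. That class held 24.4% of all tested rows. Unc13a, which primes vesicles, was at 93.2 and 65.3 CPM in the brains, between 62.2 and 81.2 CPM in the spinal cords and between 0.122 and 1.68 CPM in leg muscle. Rims2, an active zone scaffold, was between 23.9 and 31.8 CPM in the nervous system and at most 0.463 CPM in leg muscle. RIMS3, a short RIM protein, had 1018 reads in the 2 brains, 739 in the 4 spinal cords and 1 in the 5 leg muscles. The ratio of brain to leg muscle for RIMS3 was 1370, with a counting interval of 246 to 54300 (exact binomial, 95%), which covers counting error only. The Log2FC of the 3 rows lay between 6.89 and 9.91 for brain over leg muscle and between -8.69 and -6.73 for leg muscle over spinal cord.

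Synaptotagmins are vesicle proteins, some of which sense calcium. SYT4 was at 74.4 and 47.4 CPM in the brains, at 55.7, 73.4, 52.9 and 35.5 CPM in the spinal cords, and at 0.152, 0, 0, 0.0423 and 0.126 CPM in the leg muscles. Its Log2FC was 9.78 (SE 0.58, adjusted p = 2.5e-07) for brain over leg muscle and -9.61 (SE 0.56, adjusted p = 1.5e-07) for leg muscle over spinal cord. SYT16, an atypical form, lay between 4.60 and 10.1 CPM in the nervous system and at most 0.254 CPM in leg muscle. SYT9, a calcium sensor of release in some mouse neurons, was at 12.1 and 7.73 CPM in the brains against 1.22, 2.54, 2.53 and 2.68 CPM in the spinal cords, and had 2 reads in all leg muscles together. Brain and spinal cord did not overlap, with a Log2FC of 2.14 (SE 0.55), but the difference did not pass (adjusted p = 0.080). It passed with DESeq2 (adjusted p = 0.0021), with limma-voom (0.0039) and with the leg muscles left out of the fit (0.021). SYT14 was low throughout, at most 1.00 CPM, and was called only for brain over leg muscle (Log2FC 3.54, SE 1.25, adjusted p = 0.033). That call was lost without brain 1 (adjusted p = 0.18), brain 2 (0.083), leg muscle 1, 2 or 4 (0.057 to 0.060), or spinal cords 1 and 2 together (0.062). Without spinal cord 4 it was also higher in spinal cord than in leg muscle (adjusted p = 0.028).

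Complexins clamp and trigger the assembled SNARE complex, and in the mouse complexins 3 and 4 are known from retinal ribbon synapses. Cplx3 was at 26.9 and 38.7 CPM in the brains, at 0.191, 0.0892, 0 and 1.31 CPM in the spinal cords, and had no read in any leg muscle. Against the floor of 3 reads over the group, its level in the brain was at least 1010-fold higher than in leg muscle. Brain over spinal cord gave a Log2FC of 6.32 (SE 1.28), which did not pass (adjusted p = 0.055) although the tissues were far apart. It passed without spinal cord 4 (adjusted p = 0.012), leg muscle 3 (0.038) or leg muscle 5 (0.040), without a filter (0.034), with the leg muscles left out of the fit (0.013) and with limma-voom (0.00020). Between leg muscle and spinal cord the call (adjusted p = 0.028) was lost without spinal cord 4 (adjusted p = 0.051) and with limma-voom (0.13). CPLX4 was at 0.789 and 1.46 CPM in the brains, at 0.191 CPM in spinal cord 1 and 0 in the other 3, and at 0 in every leg muscle but library 5, where 0.0842 CPM was read. It was higher in brain than in leg muscle (Log2FC 5.47, SE 1.36, adjusted p = 0.0055), and it was called higher in brain than in spinal cord without spinal cord 1 (adjusted p = 0.044) and with limma-voom (0.0035).

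The brains that held both complexins also held photoreceptor and pineal transcripts. A list of 9 such genes, chosen after the complexin values were seen and matched by 14 rows, summed to 103 and 152 CPM in brains 1 and 2, to between 46.0 and 52.0 CPM in the spinal cords and to between 3.73 and 6.34 CPM in the leg muscles. Rows of CNGB1, a channel subunit, made most of the spinal cord and brain 1 sums and a large part of the brain 2 sum. Its largest rows were at 27.0 and 29.6 CPM in brain 1 and at 24.1 and 32.8 CPM in brain 2. Brain 2 was above brain 1 in the list as a whole and in both complexins. The part of such cells in the complexin values was not tested.

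Of the 6 tested rows for vesicle membrane proteins, 4 were higher in both nervous tissues than in leg muscle. In 1, leg muscle was higher than both, and in 1 it was higher than brain alone. Over all tested rows these classes held 24.4%, 19.3% and 2.49%. Syp, synaptophysin, was at 1320 and 1500 CPM in the brains, at 1070, 1450, 1010 and 1010 CPM in the spinal cords, and at 4.72, 1.14, 3.11, 2.29 and 7.62 CPM in the leg muscles. Its Log2FC was 8.54 (SE 0.58, adjusted p = 5.5e-07) for brain over leg muscle and -8.22 (SE 0.56, adjusted p = 3.9e-07) for leg muscle over spinal cord. Sv2b, a transporter-like vesicle glycoprotein, was between 10.2 and 49.0 CPM in the nervous system and had 3 reads in all leg muscles together. SYNGR3, a synaptogyrin, was between 2.20 and 16.9 CPM in the nervous system and had 2 reads in leg muscle. Sv2c was at 3.86 and 1.63 CPM in the brains and between 3.67 (spinal cord 4) and 15.4 CPM (spinal cord 1) in the spinal cords. Spinal cord 4 fell within the range of the brains, and this difference did not pass (Log2FC -1.95, SE 0.94, adjusted p = 0.38). Against leg muscle, where Sv2c was at most 0.509 CPM, both nervous tissues were higher (adjusted p = 0.0030 and 9.9e-05).

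The 2 rows annotated as SYPL2, synaptophysin-like protein 2, behaved differently from Syp and from each other. In rabbit and mouse this protein sits in the membranes that couple excitation to contraction in skeletal muscle. The row matched to the rabbit protein was at 615, 845, 482, 734 and 346 CPM in leg muscles 1 to 5. It was at 0.121 and 0.841 CPM in the brains and at 4.52, 3.30, 0.727 and 0.224 CPM in the spinal cords. Its Log2FC was -10.27 (SE 1.49, adjusted p = 0.00015) for brain over leg muscle and 8.12 (SE 0.97, adjusted p = 2.7e-05) for leg muscle over spinal cord. The spinal cords with the most of it were the 2 with the most muscle marker reads. Per 1000 CPM of muscle fibre markers, this row read between 0.985 and 1.29 CPM in the leg muscles and between 1.81 and 3.77 CPM in the brains and spinal cords. The part of muscle RNA in the spinal cord values was not tested. The row matched to the human protein was between 6.16 and 17.5 CPM in all 11 libraries. It was higher in leg muscle than in brain by the main scaling (Log2FC -1.0, SE 0.30, adjusted p = 0.015) but had the other sign with library totals alone (0.81) and lost the call without brain 1 (adjusted p = 0.13), and it did not pass between leg muscle and spinal cord (adjusted p = 0.36).

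**Figure D2:**
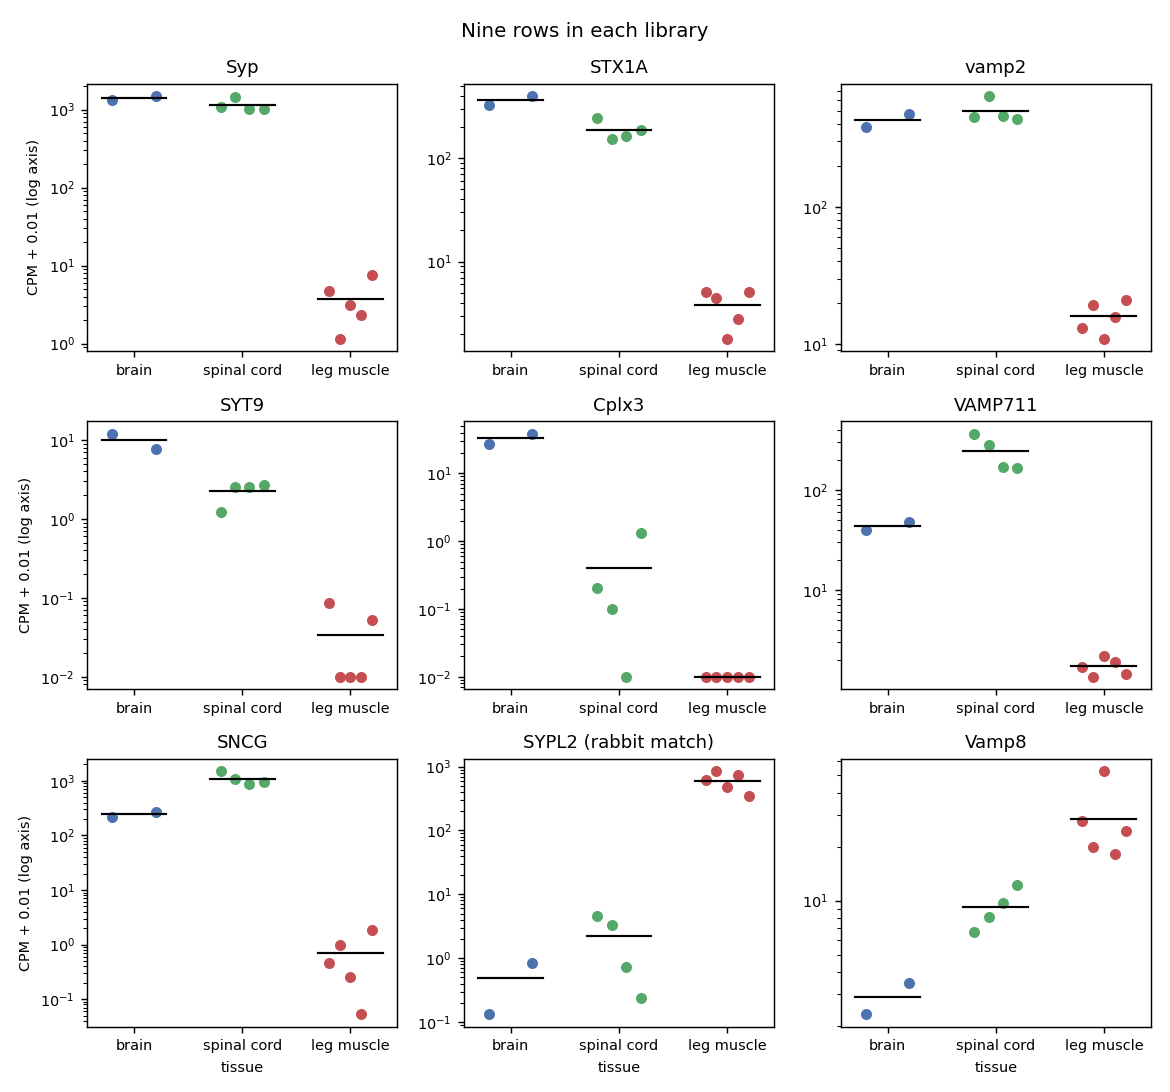
CPM + 0.01 on a log axis for 9 rows, with 1 point per library in the brain, spinal cord and leg muscle and a line at each tissue mean. Syp and vamp2 overlap between brain and spinal cord, while STX1A is higher in the 2 brains. Each is far lower in leg muscle. SYT9 and Cplx3 are highest in the 2 brains, and SNCG and VAMP711 in the 4 spinal cords. The rabbit-matched SYPL2 and Vamp8 are highest in the 5 leg muscles.

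Synucleins are small presynaptic proteins that bind vesicle membranes and chaperone SNARE assembly. SNCG, gamma-synuclein, known in mammals from motor and sensory neurons, read 219 and 267 CPM in the brains and 1500, 1090, 869 and 951 CPM in the spinal cords. Each spinal cord was above each brain, but the Log2FC of -2.18 (SE 0.83) did not pass (adjusted p = 0.25). It passed with the leg muscles left out of the fit and with limma-voom (adjusted p = 0.0093 in both). In leg muscle SNCG was between 0.0423 and 1.81 CPM (Log2FC -10.58, SE 0.83, adjusted p = 1.0e-06 against spinal cord).

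VAMP711 was the member called higher in spinal cord than in brain. Its name comes from a match to an Arabidopsis protein, so no role in the frog is given here. It was at 39.8 and 47.7 CPM in the brains, at 365, 279, 169 and 166 CPM in the spinal cords and between 1.34 and 2.19 CPM in the leg muscles, with no overlap between tissues. The Log2FC of brain over spinal cord was -2.48 (SE 0.39, adjusted p = 0.0080), and the call was lost without brain 1 (adjusted p = 0.11) or brain 2 (0.12). Spinal cords 1 and 2, the pair from the other lane, were above spinal cords 3 and 4, and without that pair the call held.

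**Figure D3:**
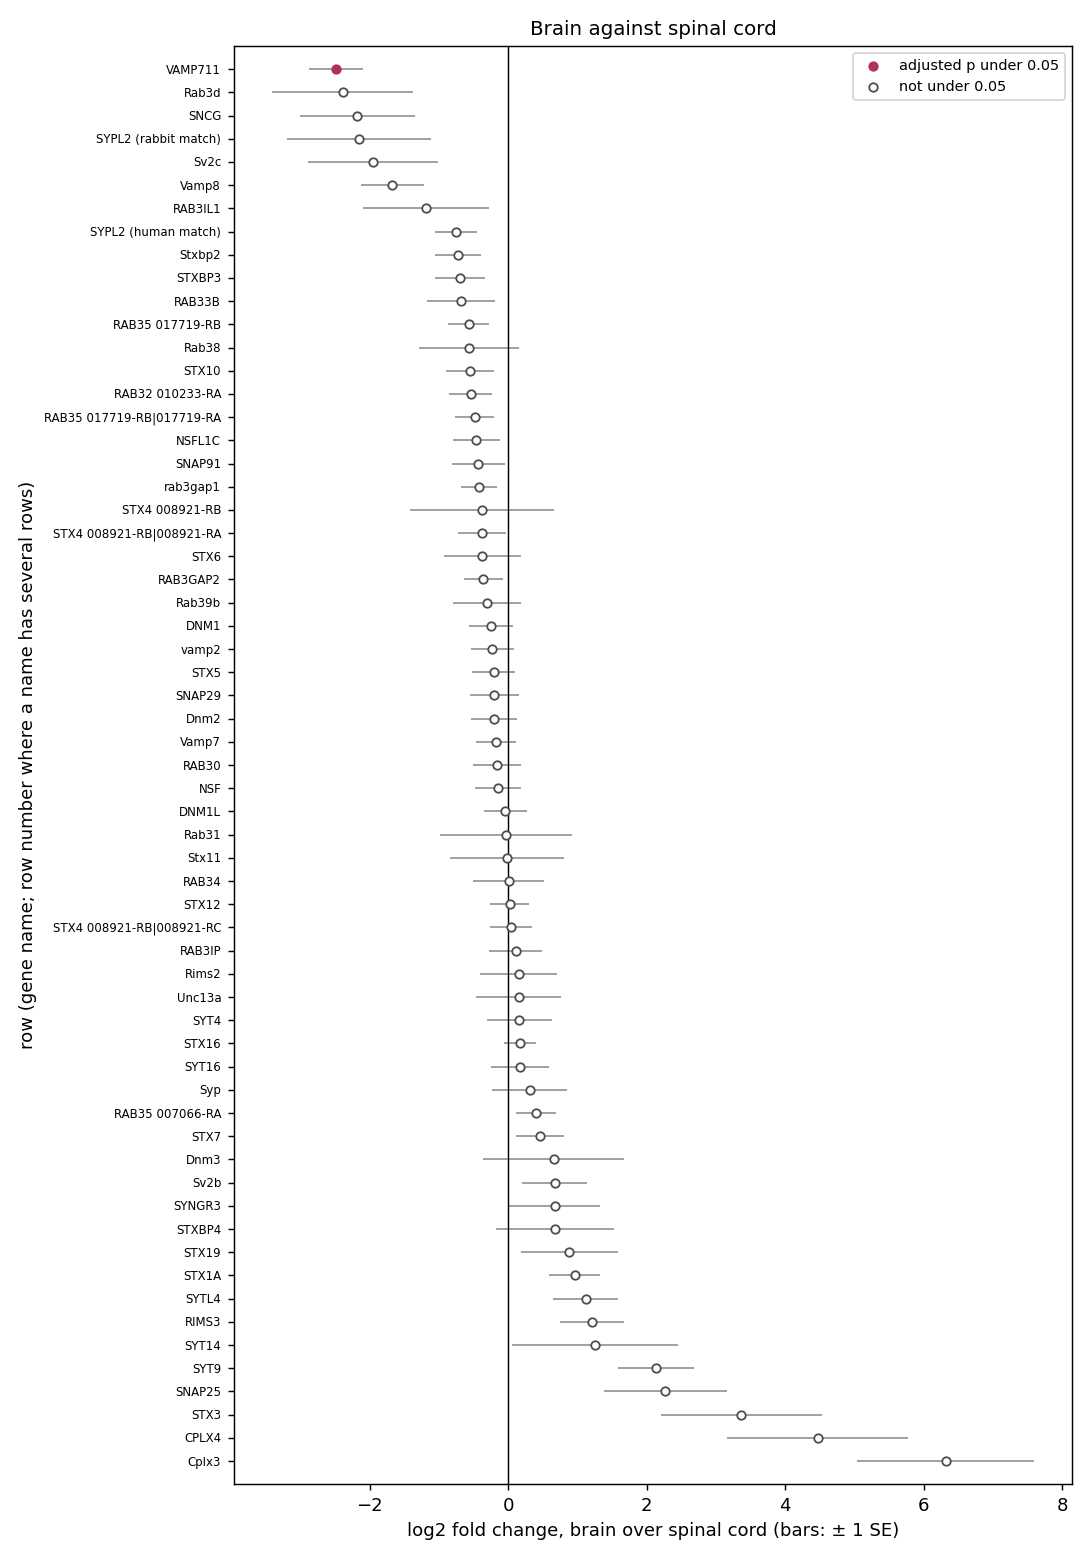
Log2 fold change of brain over spinal cord (horizontal axis) for 61 of the 64 tested rows, ordered by size, with bars of 1 SE and filled points for an adjusted p under 0.05. VAMP711 at -2.48 is the filled point among the rows drawn, and rows with larger estimates, such as Cplx3 at 6.32, have wider bars.

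The remaining 62 tested rows gave no call between brain and spinal cord. Of the 64, 48 had a Log2FC within 1 of 0 and 14 had an unadjusted p under 0.05 (21.9%, against 13.8% of all tested rows). The brain and spinal cord libraries did not overlap in 24 rows (37.5%, against 26.2% of all). Besides Cplx3 and SYT9, the rows with the lowest p that were not called were Vamp8 (Log2FC -1.67, SE 0.46, adjusted p = 0.11), CPLX4 (4.47, SE 1.31, adjusted p = 0.13) and STX3 (3.37, SE 1.16, adjusted p = 0.21). Vamp8 passed with DESeq2 (adjusted p = 0.014) and with the leg muscles left out of the fit (0.044), and STX3 with limma-voom (0.049). The fit held only 2 brains and estimated each row's spread with the leg muscles included, and the bounds on small differences are loose. The part of each in their width was not tested. The estimate plus and minus 2 SE ran from -0.85 to 0.39 for vamp2 and from -0.77 to 1.39 for Syp.

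Rab3 GTPases sit on secretory vesicles, and their regulators switch them on and off. Rab3d was at 17.2 and 23.0 CPM in the brains, at 106, 134, 96.3 and 85.4 CPM in the spinal cords and at 8.75, 2.16, 21.9, 0.974 and 2.53 CPM in the leg muscles. It was higher in spinal cord than in leg muscle (Log2FC -3.86, SE 0.76, adjusted p = 0.0011), leg muscles 1 and 3 stood above the other leg muscles, and brain and leg muscle overlapped. Without leg muscle 3 it was also higher in brain than in leg muscle (Log2FC 2.49, adjusted p = 0.0058). The spinal cords also lay above the brains without a call (Log2FC -2.39, SE 1.02, adjusted p = 0.33), and with one when the leg muscles were left out of the fit (0.0040) or with limma-voom (0.034). The exchange factor RAB3IL1 was higher in spinal cord than in leg muscle (Log2FC -2.69, SE 0.71, adjusted p = 0.0070), although spinal cord 4, at 0.575 CPM, lay inside the leg muscle range, and the call was lost without spinal cords 1 and 2 (adjusted p = 0.11). The exchange factor RAB3IP was higher in leg muscle than in spinal cord by the main scaling (Log2FC 0.84, SE 0.30, adjusted p = 0.030) but not with library totals alone (-1.08), and the call was lost without leg muscle 2 (adjusted p = 0.068) or spinal cord 3 or 4 (0.069 and 0.064). The RAB3 GTPase-activating protein subunits rab3gap1 and RAB3GAP2 read 22.9 to 42.7 CPM and 55.8 to 124 CPM in all 11 libraries. By the main scaling they gave no call, except RAB3GAP2 between brain and leg muscle without leg muscle 2 (adjusted p = 0.041). With library totals alone both were called higher in brain and in spinal cord than in leg muscle (adjusted p = 8.5e-05 to 0.017).

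Dynamins split by form. DNM1, the neuronal dynamin of vesicle recycling, was between 273 and 455 CPM in the nervous system and between 6.64 and 12.2 CPM in leg muscle (Log2FC 5.03, SE 0.30, adjusted p = 2.4e-07 for brain over leg muscle, and -5.28, SE 0.28, adjusted p = 1.0e-07 for leg muscle over spinal cord). Dnm3 was at most 0.465 CPM anywhere and had 3 reads in leg muscle. Its call over leg muscle in the brain (adjusted p = 0.020) was lost without either brain (0.10 and 0.070), and its call against spinal cord (adjusted p = 0.032) was lost without either brain, any leg muscle but 3, or spinal cord 2 or 3 (adjusted p = 0.052 to 0.10). Dnm2, the general form, was between 15.1 and 25.3 CPM in the nervous system and at 37.2, 24.9, 51.5, 33.4 and 26.9 CPM in leg muscle. Leg muscle was called over brain (Log2FC -0.89, SE 0.33, adjusted p = 0.040) and over spinal cord (0.69, SE 0.25, adjusted p = 0.037), and both signs turned with library totals alone (1.01 and -1.19). The call of Dnm2 over brain was lost without either brain or leg muscle 1, 3 or 4 (adjusted p = 0.055 to 0.19), and the call over spinal cord without leg muscle 1, 3 or 4 or spinal cord 1 or 2 (0.054 to 0.084). DNM1L, which divides mitochondria, was called over spinal cord (Log2FC 0.67, SE 0.24, adjusted p = 0.034) and also turned with library totals alone (-1.29), and the call was lost without leg muscle 1 or 2 or spinal cord 1, 3 or 4 (adjusted p = 0.057 to 0.082). Without spinal cords 1 and 2 together, the calls of Dnm2 and DNM1L over spinal cord were also lost (adjusted p = 0.2 and 0.067). SNAP91, the clathrin adaptor of synaptic vesicles, was between 42.2 and 69.1 CPM in the nervous system and at most 0.884 CPM in leg muscle (Log2FC 6.48, SE 0.39, adjusted p = 2.5e-07, and -6.91, SE 0.37, adjusted p = 1.1e-07). NSFL1C, a cofactor of the ATPase VCP, was between 140 and 360 CPM in all libraries with no call by the main scaling. With library totals alone it was called higher in brain and in spinal cord than in leg muscle (adjusted p = 0.016 and 0.00076).

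**Figure D4:**
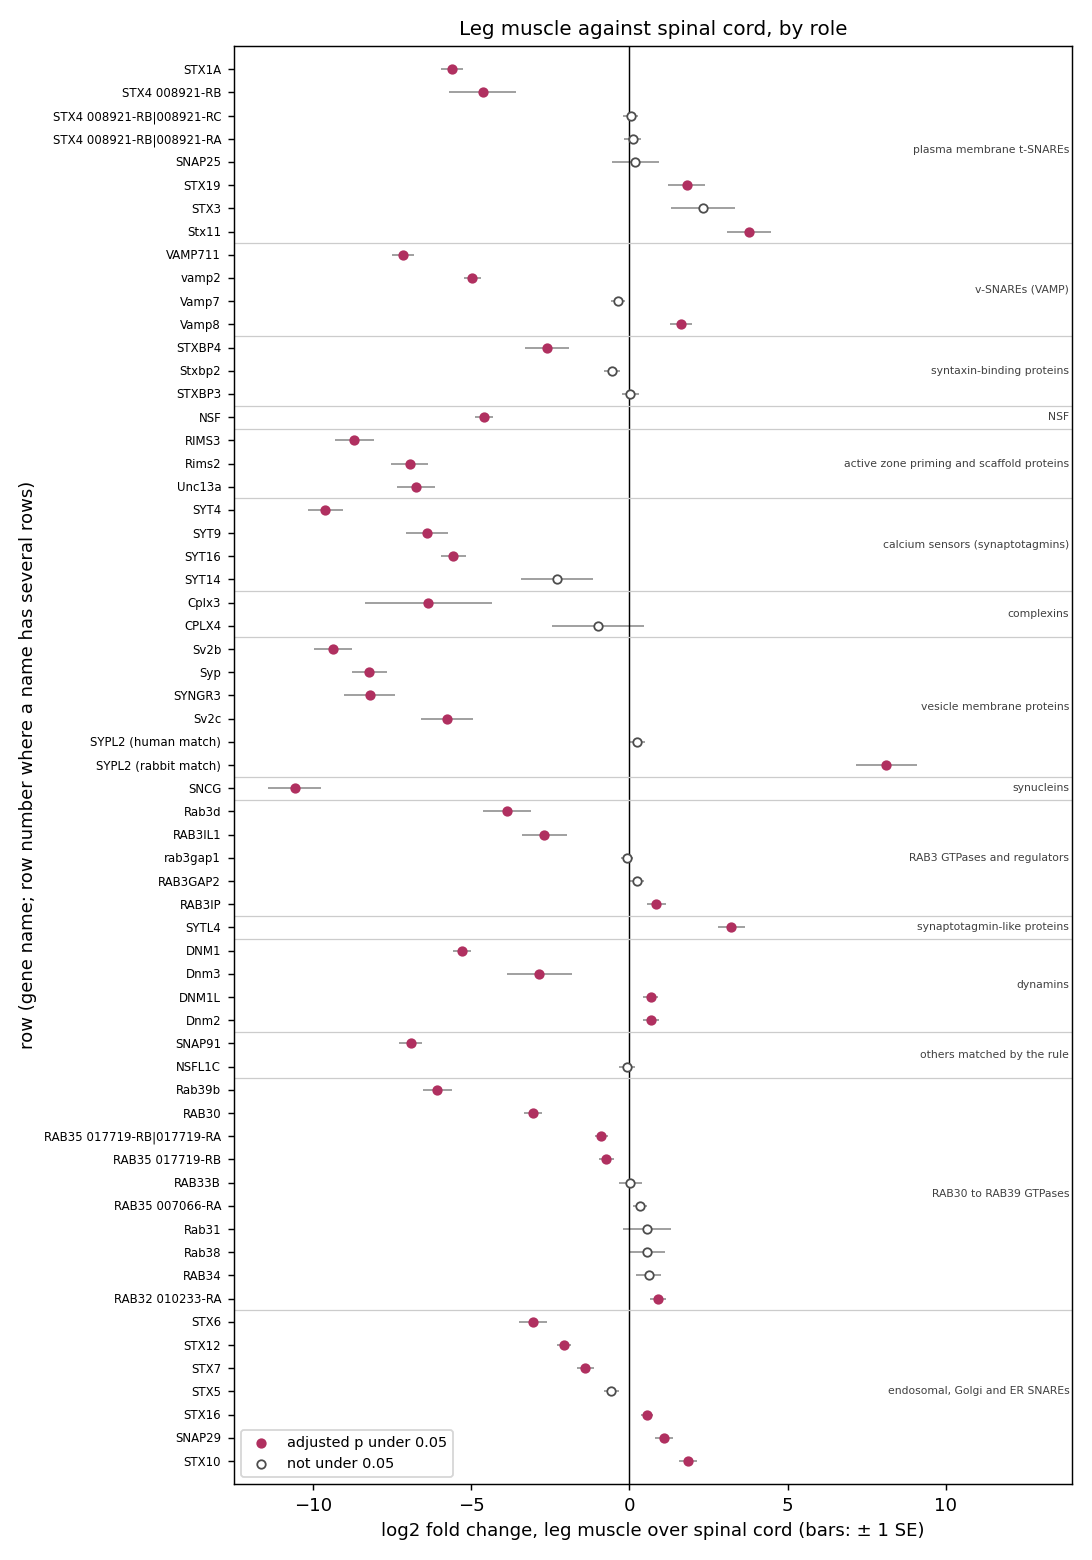
Log2 fold change of leg muscle over spinal cord (horizontal axis) for 61 of the 64 tested rows, grouped by role, with bars of 1 SE and filled points for an adjusted p under 0.05. The active zone rows lie between -8.69 and -6.73, the RAB3 and endosomal groups straddle 0, and the rabbit-matched SYPL2 lies farthest right at 8.12. With library totals alone, 9 of the 12 filled points right of 0, all but the rabbit-matched SYPL2, Stx11 and SYTL4, move left of it.

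Besides the rabbit-matched SYPL2, the 7 rows called higher in leg muscle than in both nervous tissues were Stx11, Vamp8, SYTL4, STX10, SNAP29, the main row of RAB32 and Dnm2. Stx11, a syntaxin of granule release in human lymphocytes, was at 8.22, 5.79, 29.3, 3.94 and 7.54 CPM in leg muscles 1 to 5 and at most 1.31 CPM in the nervous system (Log2FC -3.79, SE 0.95, adjusted p = 0.0060 for brain over leg muscle, and 3.78, SE 0.70, adjusted p = 0.00077 for leg muscle over spinal cord). The call over brain was lost without brain 1 (adjusted p = 0.062) and with library totals alone (Log2FC -2.10, adjusted p = 0.058). Vamp8, an endosomal and granule v-SNARE, was at 2.31 and 3.45 CPM in the brains, at 6.66, 8.11, 9.74 and 12.2 CPM in the spinal cords and at 27.6, 19.9, 52.5, 18.2 and 24.4 CPM in leg muscle. Leg muscle was above brain (Log2FC -3.31, SE 0.50, adjusted p = 0.00021) and above spinal cord (1.63, SE 0.34, adjusted p = 0.0018), the last at -0.20 with library totals alone. SYTL4, a Rab effector that docks granules, was between 18.2 and 44.7 CPM in leg muscle, at 5.53 and 8.15 CPM in the brains and between 1.30 and 4.54 CPM in the spinal cords (Log2FC -2.10, SE 0.53, adjusted p = 0.0060, and 3.22, SE 0.42, adjusted p = 5.4e-05), and the call over brain was lost without brain 1 (adjusted p = 0.063) and with library totals alone (Log2FC -0.37, adjusted p = 0.60).

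STX10, a SNARE of the trans-Golgi network, was between 77.7 and 152 CPM in leg muscle and at most 44.7 CPM elsewhere (Log2FC -2.40, SE 0.38, adjusted p = 0.00029, and 1.85, SE 0.28, adjusted p = 0.00016). With library totals alone these were -0.46 and -0.08, so the sign turned against spinal cord only. SNAP29, which acts in autophagosome fusion, was between 74.7 and 102 CPM in leg muscle, and RAB32, of lysosome-related organelles and mitochondria, between 19.5 and 30.9 CPM. Both were higher in leg muscle than in brain (Log2FC -1.29, SE 0.37, adjusted p = 0.012, and -1.44, SE 0.32, adjusted p = 0.0027) and spinal cord (1.09, SE 0.28, adjusted p = 0.0060, and 0.90, SE 0.24, adjusted p = 0.0074), and all 4 signs turned with library totals alone (0.58, 0.40, -0.79 and -0.99). Scaling by totals moved the median Log2FC of all tested rows to 1.96 and -1.95. Relative to those medians every member whose sign turned stayed on the leg muscle side. Taking off a shift shared by nearly all rows largely restores the main values, so this could hardly have come out otherwise. The SNAP29 call over brain was lost without brain 1 (adjusted p = 0.082). The RAB32 call over spinal cord was lost without spinal cords 1 and 2, the pair from the other lane (adjusted p = 0.056). Without brain 1, the count of members higher in leg muscle than in brain fell from 9 to 4, while the share of all tested rows so called fell from 21.9% to 13.1%.

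Leg muscle 3 was the highest leg muscle for Stx11, Vamp8 and Dnm2, and also for STX3, at 5.12 CPM against 0.212 to 0.926 CPM in the other 4, and STX19, at 4.94 CPM against 0.989 to 2.48 CPM. Without it, Stx11 and Vamp8 were still called in both comparisons, Dnm2 in neither and STX19 no longer over spinal cord (adjusted p = 0.057). That STX19 call was also lost without spinal cord 2 (0.054) or spinal cords 1 and 2 together (0.096). Without leg muscle 3, Vamp8 was also called higher in spinal cord than in brain (adjusted p = 0.032), and STX3 higher in brain than in leg muscle (Log2FC 2.34, adjusted p = 0.048). STX3 gave no call against leg muscle in the main fit. It was called higher in brain than in leg muscle with library totals alone (0.038). Over spinal cord, leg muscle was called higher for STX3 with DESeq2 (0.023), without leg muscle 4 (0.041) and without spinal cord 1 (0.032). White blood cell genes, a list of 12 chosen after these values were seen and matched by 16 rows, summed to 205, 348, 243, 537 and 845 CPM in leg muscles 1 to 5, with no row highest in leg muscle 3 and 11 rows highest in leg muscle 5. The part of such cells in these values was not tested.

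Among the other endosomal, Golgi and ER SNAREs, 3 were higher in both nervous tissues. The group had 7 tested rows, and this class held 24.4% of all tested rows. STX12, of recycling endosomes, was between 118 and 190 CPM in the nervous system and between 27.6 and 42.8 CPM in leg muscle (Log2FC 2.10, SE 0.26, adjusted p = 4.2e-05, and -2.08, SE 0.22, adjusted p = 1.1e-05). STX6, of the trans-Golgi network, was between 22.7 and 34.6 CPM against 1.95 to 9.29 CPM, and STX7, of late endosomes, between 16.2 and 38.2 CPM against 5.86 to 12.8 CPM. STX5, of the ER to Golgi step, gave no call, but was called higher in spinal cord than in leg muscle without leg muscle 5 (adjusted p = 0.0061), with DESeq2 (0.044) and with limma-voom (0.041). STX8 had reads in 3 libraries, none above 0.0446 CPM. The general exocytic partners Stxbp2 and STXBP3 and the lysosomal v-SNARE Vamp7 gave no call in any comparison by the main scaling. With library totals alone each of these, and STX5, was called higher in brain and in spinal cord than in leg muscle (adjusted p = 7.0e-05 to 0.023). Stxbp2 was called higher in spinal cord than in leg muscle without leg muscle 3 (adjusted p = 0.046), and STXBP3 higher in leg muscle than in brain without spinal cord 2 (0.032) or 4 (0.035).

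RAB30 to RAB39 enter through their names rather than through the synapse. Rab39b, a Rab with known roles in mammalian neurons, was between 31.3 and 50.7 CPM in the nervous system and between 0.127 and 1.14 CPM in leg muscle (Log2FC 5.76, SE 0.48, adjusted p = 2.2e-06, and -6.07, SE 0.46, adjusted p = 8.1e-07). RAB30, a Golgi Rab, was between 29.7 and 49.1 CPM against 3.42 to 7.57 CPM (Log2FC 2.89, SE 0.31, adjusted p = 1.3e-05, and -3.05, SE 0.28, adjusted p = 2.9e-06). Both were higher in each nervous tissue than in leg muscle. By the main scaling RAB33B, RAB34, Rab31, Rab38 and a RAB35 gene with a single row gave no call, except RAB34 over spinal cord without spinal cord 4 (adjusted p = 0.040). With library totals alone that RAB35 gene was called higher in brain and in spinal cord than in leg muscle (adjusted p = 0.00043 and 0.00065). Under the same scaling RAB33B was called higher in spinal cord than in leg muscle (adjusted p = 0.0030). The other RAB35 gene was higher in spinal cord than in leg muscle in the row shared by its transcripts (Log2FC -0.89, SE 0.21, adjusted p = 0.0039), and the single-row gene gave a Log2FC of 0.33 (SE 0.23, adjusted p = 0.24). Both genes carry the same annotated name, and whether reads of one were counted for the other was not tested.

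Counting by transcript splits the STX4 gene into 4 rows. The row of 1 transcript alone was higher in both nervous tissues, but on few reads, with 34 in the brains, 78 in the spinal cords and 2 in the leg muscles. Its Log2FC of 4.26 for brain over leg muscle fell to 2.83 without brain 2, and the call was lost (adjusted p = 0.16). The 2 rows shared with other transcripts held most of the gene's reads, at 7.29 to 12.3 CPM and 2.46 to 4.36 CPM throughout. They gave no call by the main scaling. With library totals alone both were called higher in brain and in spinal cord than in leg muscle (adjusted p = 0.00011 to 0.0061). Summed over the gene with the main scaling, the Log2FC was -0.05 for brain over leg muscle and -0.02 for leg muscle over spinal cord.

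The 29 rows higher in both nervous tissues were not equally low in leg muscle. As a share of the mean over brains and spinal cords, leg muscle held under 1% in 14 rows, 1 to 5% in 8 and 5% or more in 7, with a median of 1.54%. Cplx3 at 0, SNCG at 0.0858%, RIMS3 at 0.0908%, SYT4 at 0.113% and Sv2b at 0.120% lay at the low end. The high end held STX7 at 33.5%, STX12 at 23.5%, STXBP4 at 13.5%, STX6 at 13.3% and RAB30 at 12.5%. NSF stood at 4.26% and vamp2 at 3.38%.

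Leg muscle 5 was the highest of the 5 leg muscles in 15 of these 29 rows. The rows summed to 196 CPM there and to between 134 and 146 CPM in the other 4, or 2.88% against 1.97 to 2.15% of the mean spinal cord sum. It was also highest in 5 of the 16 rows with no call against leg muscle. Those 16 rows summed to 751 CPM there and to between 457 and 547 CPM in the other 4. In the 8 rows higher in leg muscle than both nervous tissues it was highest in 1. How often this library was highest over all tested rows was not counted. Syp was at 7.62 CPM in leg muscle 5 against 1.14 to 4.72 CPM in the others and Unc13a at 1.68 CPM against 0.122 to 0.837 CPM. The same library was the highest leg muscle in 6 of 8 neuron marker rows. All 8 neuron marker rows together, however, summed to 74.3 CPM in leg muscle 5, below the 85.3 to 112 CPM of the others. The gap43 row was also lowest there, at 54.9 CPM against 78.7 to 99.1 CPM. Without gap43 and UCHL1, which carried most of the neuron marker sum in leg muscle, the other 6 rows summed to 12.7 CPM in leg muscle 5. They summed to between 0.914 and 3.88 CPM in the others. Schwann cell and oligodendrocyte markers summed to 342 CPM there against 97.3 to 192 CPM, and white blood cell genes to 845 CPM against 205 to 537 CPM. Muscle fibre markers were lowest there, in the leg muscle library with the largest scaling factor (0.752). The parts of nerve RNA, white blood cell RNA and scaling in these values were not tested. Without leg muscle 5, all 40 members called between brain and leg muscle were called again, and 44 of 45 between leg muscle and spinal cord.

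**Figure D5:**
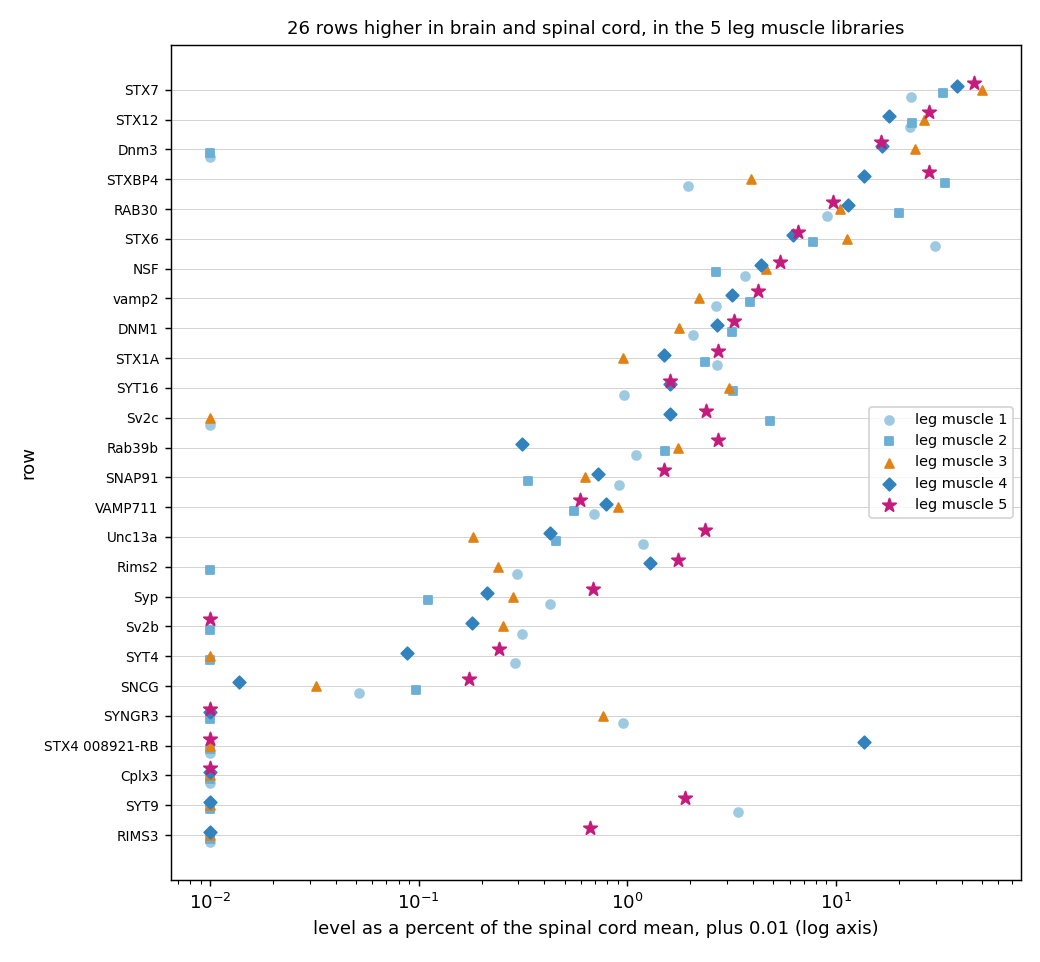
Level of 26 of the 29 rows higher in both nervous tissues (vertical axis) in the 5 leg muscle libraries, as a percent of the spinal cord mean plus 0.01 on a log axis. Leg muscle 5 (stars) is the rightmost point in 12 of the 26 rows drawn, and rows run from near 0 for RIMS3 and Cplx3 to a mean of 23.6% for STX12 and 37.8% for STX7.

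Other genes of the vesicle cycle, a list of 80 names that the rule did not take in, were matched by 81 rows of 51 names, of which 73 were tested. Between brain and leg muscle, 44 rows were called for the brain and 7 for leg muscle, against 28.7% and 21.9% of all. Between spinal cord and leg muscle, the calls were 44 and 11, against 29.9% and 25.7% of all. With library totals alone they were 63 and 0, and 65 and 1. Under that scaling 63.2% and 6.68% of all tested rows, and 68.2% and 6.63%, were so called. By the main scaling the median Log2FC of the list was 1.54 for brain over leg muscle and -1.37 for leg muscle over spinal cord. Over all rows these medians were 0.11 and -0.10. None was called between brain and spinal cord by edgeR, against 1.19% of all tested rows for the brain and 0.84% for the spinal cord. The median was 0.12, and 5 of the 73 rows had an unadjusted p under 0.05, against 13.8% of all. DESeq2 called 0 and limma-voom called 2, both higher in brain. Of all tested rows, DESeq2 called 2.37% higher in brain and 3.28% in spinal cord, and limma-voom 3.18% and 1.87%. The vesicular transporter of GABA and glycine, slc32a1, was at 293 and 260 CPM in the brains, between 203 and 296 CPM in the spinal cords and at most 0.168 CPM in leg muscle. The monoamine transporter Slc18a2 was at 19.7 and 21.5 CPM in the brains, between 23.4 and 61.7 CPM in the spinal cords and at most 0.379 CPM in leg muscle. NAPG, a partner of NSF, was between 190 and 336 CPM in the nervous system and between 21.0 and 24.2 CPM in leg muscle (Log2FC 3.67, SE 0.24, adjusted p = 3.9e-07 for brain over leg muscle, and -3.46, SE 0.21, adjusted p = 2.1e-07 for leg muscle over spinal cord). On the leg muscle side, Txlna, a syntaxin-binding taxilin, was between 100 and 130 CPM against 49.6 to 70.8 CPM (Log2FC -1.22, SE 0.22, adjusted p = 0.00072, and 0.95, SE 0.17, adjusted p = 0.00053), with both signs turned under library totals alone (0.65 and -0.92).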

How the data were processed

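RNA sequencing counts came from 11 libraries (brain 2, spinal cord 4, leg muscle 5). The authors made stranded mRNA libraries, aligned reads to their own S. parvus assembly with STAR and deposited htseq-count read counts per transcript, unnormalised; some rows stand for a set of transcripts. The strand setting of the counting is not given in the sources used here. Depth ranged from 12339432 to 56082082 reads in transcripts, which limits precision most for rows with few reads.

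Counts were filtered with filterByExpr (minimum count 10, total 15), leaving 13923 rows, scaled by TMM and fitted with edgeR 4.0.16 in R 4.3.3 by quasi-likelihood over all 11 libraries, with tissue as the model. SE is the absolute Log2FC over the root of F. Members are rows matched by the start of their annotated name. The members and gene lists were chosen with earlier results of these data known. Test values are given for up to 4 called members per role and comparison with the lowest p, every member called between brain and spinal cord with the 5 next by p, and every member called higher in leg muscle than both nervous tissues. Values of other members were chosen after they were seen. The values of 3 members are not reported here, although the counts include them. Lower bounds use 3 reads over the group. No 2 replicate libraries agreed within counting noise. The analysis was tested on simulated data. Alternatives were other scaling and filters, DESeq2 1.42.0, limma 3.58.1 voom, glmTreat against a fold of 2, fewer libraries, a replicate block and counts per gene ID. Entries assigned to no feature were left out. Their share differed by tissue, at 49.4 to 52.3% for leg muscle libraries but 66.4 to 70.0% for nervous system libraries. Its effect on the comparisons was not tested. Ambiguous entries (0.731 to 3.47%) and entries that were not unique (2.70 to 6.07%) were also outside the reads in transcripts.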

Additional observations from a re-analysis of the deposited data

Results flagged for a closer look

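Within the spinal cords and leg muscles, 122 groups of values (61 rows in each tissue) were searched for a library far from its fellows by Dixon's criterion, and 19 were found. For normally distributed values chance marks about 1 in 20 groups, that is, a few of these. A group with reads in a single library is always flagged. The rate therefore does not hold for the flags of CPLX4, RIMS3 and the single-transcript STX4 row.

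In leg muscle 5, Rab31, an endosomal Rab, stood at 8.46 CPM (0.572 to 2.62 in the other 4). RIMS3 at 0.0421 CPM and CPLX4 at 0.0842 CPM were the values of a library with reads beside 4 with none. In leg muscle 3, Stx11 stood at 29.3 CPM (3.94 to 8.22), Vamp8 at 52.5 CPM (18.2 to 27.6) and STX3 at 5.12 CPM (0.212 to 0.926). In leg muscle 1, STX6 stood at 9.29 CPM (1.95 to 3.54) and STXBP3 lay low, at 13.7 CPM (16.4 to 17.1). RAB30 was at 7.57 CPM in leg muscle 2 (3.42 to 4.32), and the single-transcript STX4 row at 0.0847 CPM in leg muscle 4, with no read in the other 4.

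In spinal cord 4, STX10 stood at 44.7 CPM (24.7 to 26.2 in the other 3), RAB34 at 8.60 CPM (3.25 to 4.10), Cplx3 at 1.31 CPM (0 to 0.191), and the shared STX4 rows at 3.90 CPM (3.02 to 3.17) and 12.3 CPM (8.16 to 8.65). In spinal cord 2, Syp stood at 1450 CPM (1010 to 1070) and vamp2 at 644 CPM (439 to 461), both abundant release genes. In spinal cord 1, SYT9 lay low, at 1.22 CPM (2.53 to 2.68), and CPLX4 was at 0.191 CPM with no read in the other 3.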

How the results depend on the processing

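Between brain and spinal cord, 1 member was called in each direction. The count higher in brain became 2 with library totals alone, without a filter, with DESeq2 or with the replicate block. It became 3 with only the 2 tissues compared, 6 with limma-voom and 0 without spinal cords 1 and 2. In the order named, the shares of all tested rows so called were 0.826%, 0.863%, 2.37%, 0.531%, 2.57%, 3.18% and 0.221%. The main setting called 1.19%. Leaving out each library in turn gave 0 to 2. The count higher in spinal cord became 2 with DESeq2, 3 with limma-voom and 4 with only the 2 tissues compared, and 0 to 2 with a library left out. Either brain left out gave 0 in both directions. DESeq2, limma-voom and the fit of only the 2 tissues called 3.28%, 1.87% and 1.97% of all tested rows higher in spinal cord than brain. The main setting called 0.84%. Between brain and leg muscle, 31 higher in brain became 51 with library totals alone (63.2% of all tested rows, from 28.7%). The 9 higher in leg muscle became 2 with library totals alone and 5 with glmTreat, and 4 to 10 with a library left out. Between leg muscle and spinal cord, 12 and 33 became 3 and 53 with library totals alone, and 12 became 5 with glmTreat. Of all tested rows, glmTreat called 14% higher in leg muscle than in brain and 14.8% higher than in spinal cord. The main setting called 21.9% and 25.7%. With library totals alone, 6.68% were called higher in leg muscle than in brain. Against spinal cord, 6.63% were higher in leg muscle and 68.2% in spinal cord. With library totals alone, the sign turned for leg muscle against brain in Dnm2 (1.01), RAB32 (0.40), SNAP29 (0.58) and the SYPL2 row matched to the human protein (0.81), and against spinal cord in DNM1L (-1.29), Dnm2 (-1.19), STX10 (-0.08), RAB3IP (-1.08), RAB32 (-0.99), Vamp8 (-0.20), SNAP29 (-0.79), STX16 (-1.34) and STX19 (-0.05). Counts summed per gene ID turned the single-transcript STX4 row between brain and leg muscle (-0.05), since the gene's other rows then enter. The cause of the other changes was not tested. Of 8 same-numbered pairs of libraries, 5 had deviations from their tissue means that correlated at r over 0.1 and 3 did not (r from -0.049 to 0.217). Of 8 leg muscle and spinal cord libraries, 2 correlated best with their own number. The labels do not say what a number marks, so it was not taken as a pairing. With the replicate block, 2 of 2, 37 of 40 and 44 of 45 member calls were made again in the 3 comparisons. The calls not made again were CPLX4 (adjusted p = 0.053), Dnm2 (0.11) and the human-matched SYPL2 (0.067) between brain and leg muscle, and Dnm3 (0.063) between leg muscle and spinal cord. Rows with few reads, such as Dnm3, CPLX4 and SYT14, are limited by depth.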
